A study of Mus musculus with 4 samples.

Results

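The mitosis and chromosome segregation genes are a set of 42 genes whose products carry a cell from entry into mitosis to cytokinesis. They were listed by symbol and role, and read from every probe set of the array that the platform annotation assigns to 1 of these symbols alone. Of the 42 genes, 41 had such a probe set, among 18193 genes on the array, and they held 91 probe sets (28 genes had several, at most 5). For Ccnb1, the gene of cyclin B1, no expression value was used here, and only its promoter window was read.

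The study concerns the transcription factors STAT4 and STAT6, which carry the signals of interleukin-12 and interleukin-4, and what each contributes to transcription in differentiating helper T cells. Total RNA of mouse CD4+ T cells was hybridised to 4 Affymetrix expression arrays, 1 for each of 4 groups. The groups were STAT6-deficient Th2 cells (genotype B6.129S2©-STAT6<tm1Gru>/J), wild type Th2 cells (C57BL/6J), STAT4-deficient Th1 cells (C57BL6-STAT4<tm1>) and wild type Th1 cells (C57BL/6J). All came from naive CD4+CD44-CD62L+ cells sorted from spleen and lymph nodes. They were stimulated through CD3 and CD28 for 3 days and then kept in IL-2 for 4 days, so every group was sampled after a week of growth in culture. Th1 cultures had IL-12 throughout and anti-IL-4 in the first phase, and Th2 cultures had IL-4 throughout and anti-IFN-g in the first phase. All received CD3 and CD28 antibodies and their polarizing cytokine again for the last 2 h before RNA was taken. The labels give no age, no sex, no number of mice per culture and no cell count, so the growth rate of the cultures is not known. The Th1 and Th2 wild type arrays differ in cytokine and antibody together, and their effects cannot be told apart.

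Mitosis is driven by Cdk1 bound to cyclins A and B, and by the Aurora and Polo kinases, which condense the chromosomes and build the spindle. The kinetochore ties each chromosome to spindle microtubules, and the spindle checkpoint holds back the anaphase-promoting complex until all are attached. Most of these genes are transcribed late in the cell cycle, from G2 into mitosis, so their RNA in a culture depends on how many of its cells are dividing. Their promoters are known for 2 short elements: CCAAT boxes, which NF-Y binds, and the cell cycle genes homology region (CHR), which MuvB complexes bind. MuvB joins p130 or p107 (the genes Rbl2 and Rbl1) and E2F4 in resting cells, and B-Myb and FoxM1 in dividing cells.

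Values are log2 expression levels as deposited, and a difference of 1 is 2-fold. Each group is 1 array, so the differences carry neither an error between replicates nor a test, and they hold for these arrays alone. A gene was called higher or lower where it differed by at least 2-fold and its brighter array reached 5.82, the median of all probe sets. Where a gene had several probe sets, its value is that of the brightest over the 4 arrays. As a guide to probe behaviour, the SD between probe sets of 1 gene was 0.65 for the difference that STAT6 loss made and 0.48 for that of STAT4 loss.

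The arrays as deposited were not on 1 distribution, with medians between 5.63 and 6.01. Both wild type arrays had a median of 5.77, but their 75th percentiles were 7.53 in Th1 and 8.10 in Th2 cells. Those of STAT4-deficient Th1 and STAT6-deficient Th2 cells were 7.63 and 7.79. The hybridised RNA also differed. The control probe sets for the 3′ end of beta-actin outshone those for the 5′ end by 2.08 (log2) in STAT6-deficient Th2 cells, against 0.85 in wild type Th2 cells, and by 0.66 in STAT4-deficient Th1 cells, against 0.32 in wild type Th1 cells. All 10 T lineage markers measured were at or above the level minimum on every array, between 9.68 and 13.87. Stat4 read 9.20 in STAT4-deficient against 11.45 in wild type Th1 cells. Stat6 read 10.92 in STAT6-deficient against 10.93 in wild type Th2 cells, so its main probe set did not separate these arrays. The other of its 2 probe sets gave a STAT6 loss difference of −0.53. Where these probe sets lie relative to the targeted part was not given in the sources used here.

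The start regions of 6 of the genes are printed to show the 2 elements in place. Both elements stood in 25 of the 35 genes of the set that had a promoter window. Among these genes, the 6 printed had the largest STAT6 loss differences. Each sequence runs 5′ to 3′ along the gene's strand, from 150 bases before the annotated start to 50 after it, with CCAAT boxes (ATTGG on the other strand) and CHR hexamers (TTTGAA, or TTCAAA on the other strand) in capitals. The windows are RefSeq's on GRCm38.p6. They lie at chr9:61946750-61946949 (Kif23), chr3:27153805-27154004 (Ect2), chr1:189688037-189688236 (Cenpf) and chr2:172370521-172370720 (Aurka), all on the minus strand. Those of Ttk (chr9:83834539-83834738) and Prc1 (chr7:80294301-80294500) are on the plus strand.
Kif23: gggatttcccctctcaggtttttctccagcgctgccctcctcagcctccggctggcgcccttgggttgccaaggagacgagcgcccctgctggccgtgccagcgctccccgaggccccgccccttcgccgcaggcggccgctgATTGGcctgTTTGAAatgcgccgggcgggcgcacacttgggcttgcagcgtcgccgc
Ect2: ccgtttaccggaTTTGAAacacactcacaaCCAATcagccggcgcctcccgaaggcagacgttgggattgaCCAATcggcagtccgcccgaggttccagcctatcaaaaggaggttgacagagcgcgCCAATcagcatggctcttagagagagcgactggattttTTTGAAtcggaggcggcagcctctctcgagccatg
Cenpf: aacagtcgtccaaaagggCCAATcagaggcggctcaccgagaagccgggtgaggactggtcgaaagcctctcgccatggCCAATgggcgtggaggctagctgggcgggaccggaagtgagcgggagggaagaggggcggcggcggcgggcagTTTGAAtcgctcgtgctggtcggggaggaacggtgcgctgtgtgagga
Aurka: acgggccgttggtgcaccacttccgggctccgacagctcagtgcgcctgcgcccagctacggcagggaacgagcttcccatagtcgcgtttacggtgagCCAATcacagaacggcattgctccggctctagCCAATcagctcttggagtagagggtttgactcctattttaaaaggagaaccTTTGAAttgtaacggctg
Ttk: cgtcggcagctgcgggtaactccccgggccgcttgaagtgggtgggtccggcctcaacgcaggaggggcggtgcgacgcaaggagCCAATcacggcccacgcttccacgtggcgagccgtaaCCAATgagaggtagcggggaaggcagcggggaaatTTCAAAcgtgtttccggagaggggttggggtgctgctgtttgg
Prc1: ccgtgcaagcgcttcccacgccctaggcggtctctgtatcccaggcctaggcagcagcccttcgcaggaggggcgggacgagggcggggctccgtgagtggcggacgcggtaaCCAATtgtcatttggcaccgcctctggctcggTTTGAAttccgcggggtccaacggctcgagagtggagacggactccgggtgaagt

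In 4 of these 6 windows (Kif23, Cenpf, Ttk and Prc1) the CHR hexamer lay within 10 bases of the start, and in Ect2 and Aurka the nearest lay 15 and 32 bases after it. CCAAT boxes lay before the hexamer nearest the start in all 6.

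The same letters were counted in all 300-base windows of the promoter table, 250 bases before to 50 after each start. It held 37 windows of 35 of the 42 genes, with 2 overlapping windows each for Ect2 and Prc1, and 32851 windows in all. A CHR hexamer (TTTGAA or TTCGAA, either strand) stood in 30 of the 37 windows (81.1%), against 19.2% of all windows. A CCAAT box stood in 81.1% of the windows, against 37.4% of all. Both elements stood together in 27 windows (73.0%), against 7.52% of all. Positions were alike as well. Of the 36 TTTGAA matches in these windows, 72.2% began 50 bases before the start or later, against 25.3% of all TTTGAA matches, and their median position was −1.5 against −124, with the start at 0. The letters TATAAA were in 1 of the 37 windows (2.70%), against 13.6% of all. Nek2, Nusap1, Mad2l1, Birc5, Nuf2, Cenpe and Ccnb1 had no CHR hexamer in the window. Ccna2, Smc4, Incenp, Aurkb, Tpx2, Kif20a and Cdc25c were not in the table.

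Counted by gene, the CHR was in 28 of 35 genes of the set (80.0%), in 48 of 101 other mitosis genes (47.5%), in 7 of 31 DNA replication genes (22.6%) and in 21.7% of all genes. Letters that E2F factors bind (TTTCGCGC, TTTGGCGC or TTCCCGCC) showed the opposite order, in 2 of 35 genes of the set (5.71%) and in 14 of 31 replication genes (45.2%), against 3.39% of all genes. The spaced STAT letters TTCNNNGAA were in 0 of the 37 windows and in 8.30% of all windows, and the same letters with 1 more base between them were in 3 windows (8.11%) and in 6.95% of all. Of the CHR matches, 1 shared bases with a CCAAT box and 2 with a match of these wider letters. A match is a description of these letters, and no match says only that they are not in this window.

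**Figure D1:**
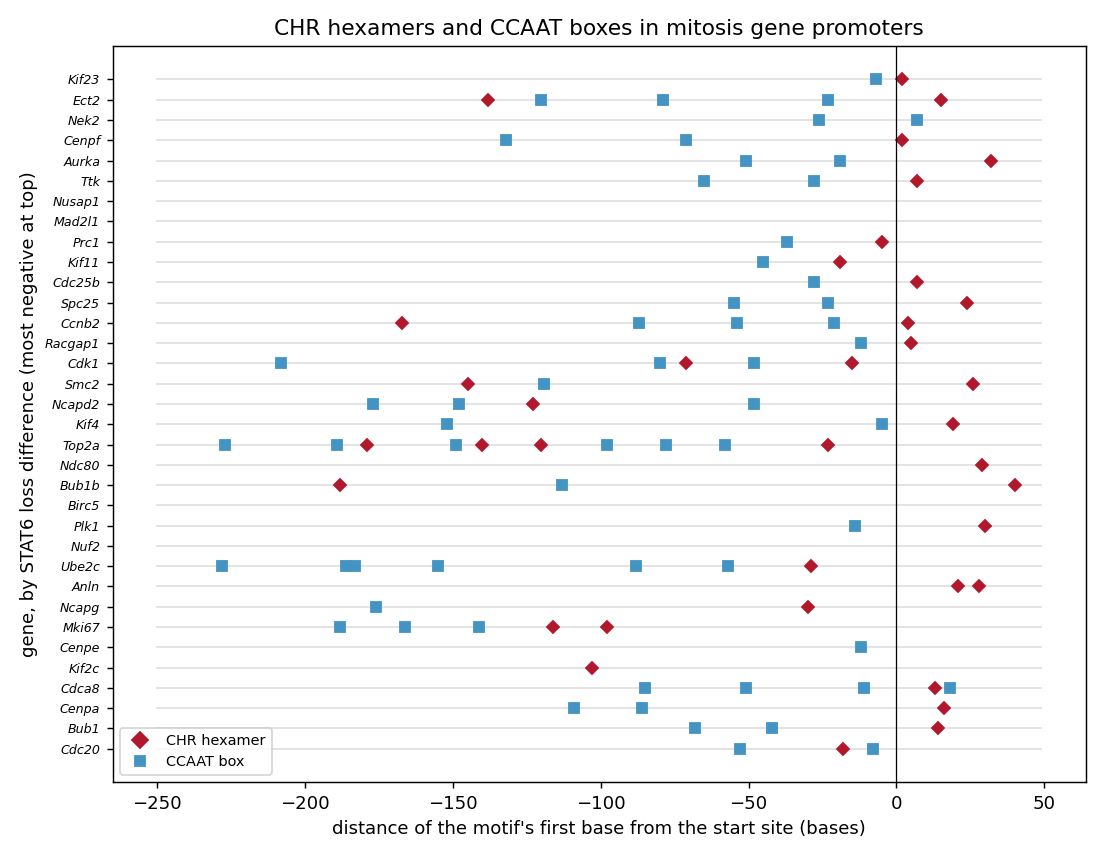
Positions of CHR hexamers (red diamonds) and CCAAT boxes (blue squares) in 1 promoter window for each of the 34 measured genes with a window; the horizontal axis is the distance in bases from the annotated start site (0), and genes run from the largest STAT6 loss difference at the top. Red diamonds gather around the start site and blue squares mostly lie before it.

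On the main probe sets, wild type Th2 cells held the highest level of every one of the 41 genes. Some other probe sets at the level minimum, of Bub1b, Cenpf, Tpx2, Cenpa and Incenp, were highest in STAT4-deficient Th1 cells. Of Incenp, another was highest in wild type Th1 cells (6.35, against 5.63 in wild type Th2). A further probe set of Incenp was highest in STAT6-deficient Th2 cells (7.09, against 7.01 in wild type Th2). The median gene of the set read 8.36 in STAT6-deficient Th2 cells, against 9.97 in wild type Th2 cells, and 8.31 in STAT4-deficient Th1 cells, against 7.77 in wild type Th1 cells. Among all 13147 genes at the level minimum, 41.8% were highest in wild type Th2 cells. The lowest array was wild type Th1 for 28 of the 41 genes, STAT4-deficient Th1 for 8 and STAT6-deficient Th2 for 5, while wild type Th1 was lowest for 31.1% of all genes. The commonest order, in 18 genes, was wild type Th2, STAT6-deficient Th2, STAT4-deficient Th1 and wild type Th1 from high to low. Neighbours in these orders often lay closer together than probe sets of 1 gene do. That was so for the lead of wild type Th2 over the next array in 3 genes, Smc4 (0.013), Cdc25c (0.28) and Cenpa (0.50), where it lay below the 0.65 given above. In RNA from whole cultures, fewer dividing cells and less of these RNAs per dividing cell cannot be told apart.

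**Figure D2:**
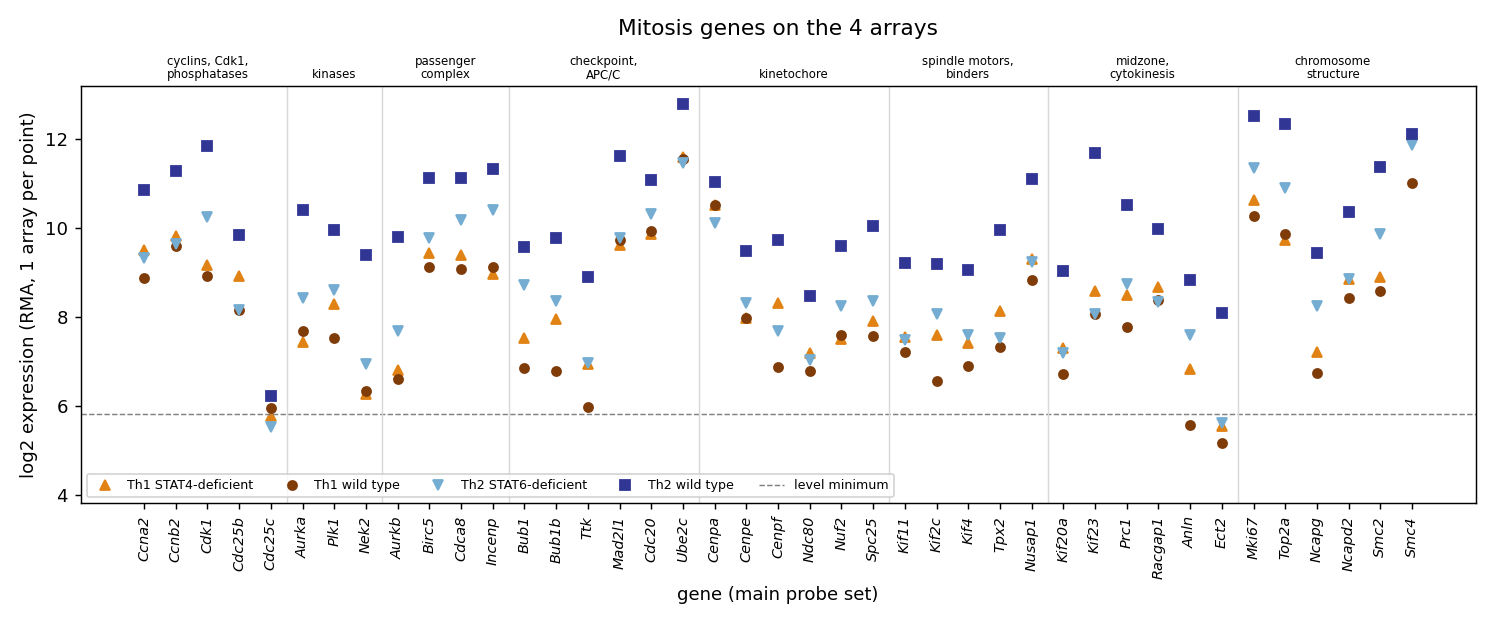
Deposited log2 expression level of each of the 41 genes (main probe set) on the 4 arrays, 1 point per array, grouped by role; the dashed line is the level minimum of 5.82. The wild type Th2 point is the highest for every gene, and in 31 of the 41 genes the other 3 arrays lie within a range no wider than its lead over the next array.

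Without STAT6, the Th2 cells had lower levels of all 41 genes, and 34 of them passed the 2-fold limit, while 0 were higher. The background among 11490 genes with enough signal was 19.5% lower and 7.01% higher, and 65.7% differed in the negative direction at all. The median difference of the set was −1.50, from −3.61 to −0.23. The median was −0.19 over all genes and −0.30 over the 11490 genes with enough signal. Of a list of reference genes 9 were measured, and all 9 were below 0 (median −0.45). Only Actb, beta-actin, was called lower among these (−1.52), while its other probe set gave 0.47. The 7 genes short of the limit were Cdc25c, Cdca8, Incenp, Bub1, Cdc20, Cenpa and Smc4. Among genes whose brighter array reached the 75th percentile of all probe sets, where 34 of 40 genes of the set were lower, the background was 22.4%. Under 4 other scalings of the arrays 30 to 37 genes were lower. These values come from the array with the largest actin 3′ to 5′ difference, and the part of that difference in the result was not tested. Summed levels of markers of other cells were also lower in STAT6-deficient Th2 cells. Myeloid and dendritic markers were at the level minimum for 3 of 8 in STAT6-deficient and 5 of 8 in wild type Th2 cells (log2 of the summed level 8.61 and 9.71). Of the CD8 and NK markers 1 of 3 and 2 of 3 were (7.38 and 8.85), led by Cd8b1 (−2.07), and of the erythroid, mast cell and platelet markers 1 of 8 and 2 of 8 (8.51 and 9.49), led by Cpa3 (−3.74). B cell markers had 0 of 5 and 2 of 5 (7.23 and 7.71). The median differences of these 4 lists, in this order, were −0.90, −0.34, −0.05 and −0.74. Below 0 were 7 of 8, 2 of 3, 5 of 8 and 4 of 5 genes, and Cd79a of the B cell list read 1.16 higher without STAT6. The part of such cells in the result was not tested.

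Without STAT4, the Th1 cells showed no such difference. None of 40 genes at the level minimum was lower and 5 were higher (Cenpf, Anln, Bub1b, Smc4 and Kif2c), against 5.34% lower and 6.18% higher of 12608 genes. The median difference was 0.36, with 32 of 41 genes above 0. The median was 0.17 over all genes and 0.13 over the 12608 genes, of which 58.2% were above 0. The number higher followed the scaling, with 2 after centring each array on its median and 12 after centring on the hybridization controls.

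Between the wild types, Th1 cells had lower levels than Th2 cells for all 41 genes, and 39 passed the limit, all but Cdc25c and Cenpa. The median difference, Th1 minus Th2, was −2.27, against −0.10 over all genes. Of the 12111 genes at the level minimum, 25.4% were lower, 8.14% higher and 65.4% below 0, with a median of −0.37. Of the 9 reference genes, 3 were lower (Gusb, Pgk1 and Sdha), 0 higher and 6 below 0, with a median of −0.26. This comparison does not use the STAT6-deficient array, and its beta-actin 3′ to 5′ differences were 0.32 in Th1 and 0.85 in Th2 cells. The number lower stayed between 36 and 39 under the other 4 scalings. The summed markers of other cells were also lower in wild type Th1 cells, at a log2 level of 9.11 in Th1 and 9.71 in Th2 cells for the myeloid list, 8.09 and 8.85 for the CD8 and NK list, and 8.99 and 9.49 for the erythroid, mast cell and platelet list. Single genes led these sums, Adgre1 (the macrophage marker F4/80, −3.26), Cd8b1 (−1.13) and Cpa3 (−1.68), while the median differences of the 3 lists were −0.04, 0.02 and 0.35. The B cell list was at 7.62 and 7.71. The part of these cells in the result was not tested.

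Between the knockouts, STAT4-deficient Th1 minus STAT6-deficient Th2, the median difference was −0.24. Of the set 26 of 41 were below 0, against 49.1% of 12582 genes at the level minimum. Lower were 5 of 39 genes (Cdk1, Incenp, Bub1, Top2a and Ncapg), and 0 were higher. The background was 10.3% lower and 12.6% higher. On the main probe sets the genes of the set were thus called lower about as often as genes in general, but not higher. The comparisons between genotypes and between culture conditions share arrays, and their values stand side by side only.

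**Figure D3:**
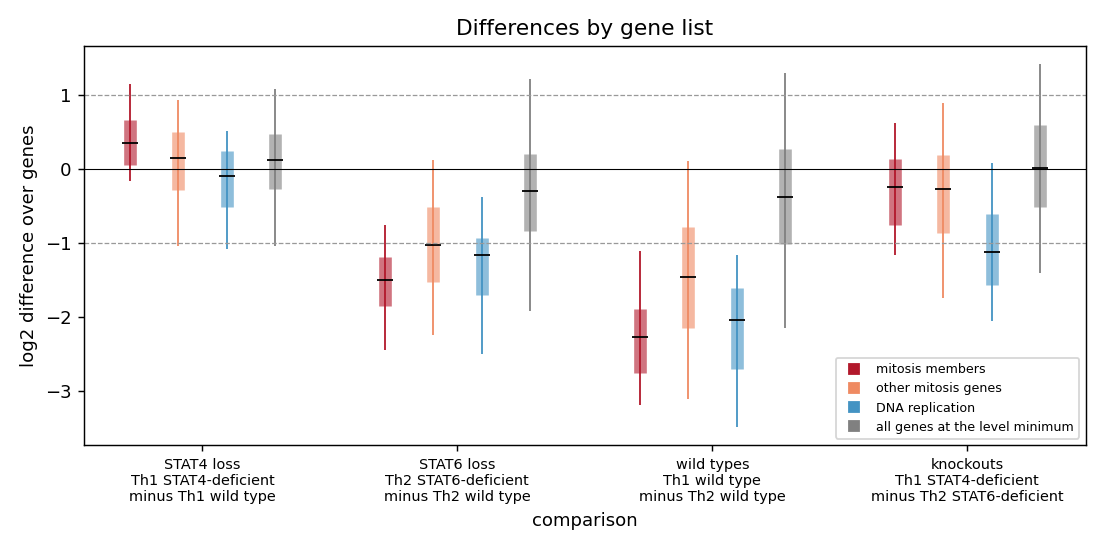
Log2 differences in the 4 comparisons for the 41 mitosis genes, 120 other mitosis genes, 39 DNA replication genes and all genes at the level minimum; the black mark is the median, the thick bar spans the middle 50% of genes and the thin line most of the rest, without the outermost genes. The mitosis genes lie below all genes in STAT6 loss (median −1.50) and between the wild types (median −2.27), and near 0 in STAT4 loss (0.36) and between the knockouts (−0.24).

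On the main probe sets, STAT6-deficient Th2 cells were not as low as wild type Th1 cells in most genes. Other probe sets that reached the level minimum on either of these arrays ran both ways. Those of Smc2, Smc4, Bub1b, Kif2c, Nek2, Incenp, Kif11, Ncapg, Spc25, Cdc20 and Cenpa included some that were lower in STAT6-deficient Th2 cells. Those of Ccna2, Prc1, Aurkb, Cdca8, Tpx2, Racgap1, Ncapd2 and Top2a were higher. Some lay more than 2-fold apart, such as a probe set of Smc2 (4.90 in STAT6-deficient Th2, 7.06 in wild type Th1) and that of Ccna2 (10.02 and 8.26). This comparison was made on the deposited values alone. Set against wild type Th1 cells, STAT6-deficient Th2 cells read a median of 0.65 higher over the main probe sets of the 41 genes. Above 0 were 36, against 52.8% of 11841 genes at the level minimum. At least 2-fold higher were 13 of 41, led by Anln (2.02), Bub1 (1.85) and Bub1b (1.57), and 0 were lower. Of the 11841 genes 15.0% were higher and 10.8% lower. Kif23, Cdc25b, Mad2l1 and Ccnb2 differed by less than 0.1 between these arrays, at 0.00, −0.01, 0.03 and 0.04. These 2 arrays differ in genotype and in culture condition, which cannot be told apart here.

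The cyclins and their kinase were lower without STAT6 in 4 of 5 genes (median −1.62). Ccna2, cyclin A2 of S phase and early mitosis, read 9.32 in STAT6-deficient against 10.84 in wild type Th2 cells, and 9.49 in STAT4-deficient against 8.88 in wild type Th1 cells. Ccnb2, cyclin B2, read 9.63 in STAT6-deficient against 11.28 in wild type Th2 cells, and 9.82 in STAT4-deficient against 9.59 in wild type Th1 cells. On these probe sets only the wild type Th2 array stood apart from the rest. The second probe set of Ccna2 read 10.02 in STAT6-deficient against 10.99 in wild type Th2 cells, and 9.11 in STAT4-deficient against 8.26 in wild type Th1 cells, so there both Th2 arrays stood above both Th1 arrays. Cdk1, the kinase that drives entry into mitosis, read 10.23 in STAT6-deficient against 11.85 in wild type Th2 cells, and 9.17 in STAT4-deficient against 8.92 in wild type Th1 cells. Here the 2 Th2 arrays lay above both Th1 arrays, and the wild types differed 7.65-fold. Cdc25b, a phosphatase that activates Cdk1, was 3.23-fold lower without STAT6 and 1.68-fold higher without STAT4, the second short of the limit. Cdc25c, its relative, read between 5.51 and 6.22 on all arrays, near the level minimum, and was called in no comparison.

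All 3 kinases were lower without STAT6 (median −1.98) and in wild type Th1 against wild type Th2 cells (median −2.72), and none was called without STAT4. Aurka, Aurora A of the spindle poles, read 8.42 in STAT6-deficient against 10.40 in wild type Th2 cells, and 7.42 in STAT4-deficient against 7.68 in wild type Th1 cells. Plk1, the Polo kinase, read 8.60 in STAT6-deficient against 9.94 in wild type Th2 cells, and 8.29 in STAT4-deficient against 7.51 in wild type Th1 cells. Nek2, a centrosome kinase, read 6.94 in STAT6-deficient against 9.38 in wild type Th2 cells, and 6.26 in STAT4-deficient against 6.33 in wild type Th1 cells. STAT6-deficient cells stood between the 2 wild types for all 3. Nek2 had the largest difference of these kinases, 5.45-fold lower without STAT6.

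The chromosomal passenger complex, which corrects faulty attachments and moves to the midzone at anaphase, was lower without STAT6 in 2 of 4 genes and in wild type Th1 against wild type Th2 cells in all 4. Its kinase Aurkb, Aurora B, read 7.68 in STAT6-deficient against 9.78 in wild type Th2 cells, and 6.81 in STAT4-deficient against 6.59 in wild type Th1 cells. Birc5, survivin, was 2.55-fold lower without STAT6. Cdca8, borealin, was 1.95-fold lower and Incenp, the scaffold of the complex, 1.88-fold lower, both short of the limit. Both calls depend on the probe set: the 2 other probe sets of Cdca8 gave −1.16 and −1.45, past the limit, and the 5 of Incenp ran from −1.28 to 0.61.

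The spindle checkpoint and the anaphase-promoting complex had 4 of 6 genes lower without STAT6 (median −1.37) and 6 of 6 lower in wild type Th1 against wild type Th2 cells (median −2.30). Ttk, the kinase Mps1 that starts checkpoint signalling, read 6.96 in STAT6-deficient against 8.90 in wild type Th2 cells, and 6.95 in STAT4-deficient against 5.97 in wild type Th1 cells. Mad2l1, Mad2 of the inhibitory complex, read 9.76 in STAT6-deficient against 11.62 in wild type Th2 cells, and 9.61 in STAT4-deficient against 9.74 in wild type Th1 cells. Wild type Th2 stood alone for both, and the 3 other arrays differed by at most 0.15 for Mad2l1. Bub1b, the gene of BubR1, was 2.67-fold lower without STAT6 and 2.23-fold higher without STAT4, the second on 1 of its 3 probe sets, while Bub1, a kinase of the same pathway, was 1.82-fold lower and 1.59-fold higher, both short of the limit. Cdc20, the activator of the complex that the checkpoint inhibits, was 1.69-fold lower without STAT6 and did not pass. Ube2c, its ubiquitin-conjugating enzyme, read 11.46 in STAT6-deficient against 12.78 in wild type Th2 cells, and 11.60 in STAT4-deficient against 11.55 in wild type Th1 cells. A dimmer probe set of Bub1b ran the other way between the wild types, 1.41 higher in Th1, where its 2 other probe sets read −2.61 and −2.99.

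At the kinetochore and centromere 5 of 6 genes were lower without STAT6 (median −1.38). Cenpf, a large protein of the outer kinetochore, read 7.68 in STAT6-deficient against 9.73 in wild type Th2 cells, and 8.31 in STAT4-deficient against 6.87 in wild type Th1 cells. It had the largest STAT4 loss difference of the set, 2.73-fold higher, although its other probe sets gave 0.36 and 0.76. Of the Ndc80 complex, which grips the microtubule, Ndc80 was 2.69-fold, Nuf2 2.52-fold and Spc25 3.20-fold lower without STAT6, and none of the 3 was called without STAT4. The differences of these 3 subunits lay between −1.68 and −1.34. Cenpe, a kinesin that brings chromosomes to the plate, was 2.22-fold lower without STAT6 and differed by less than 0.01 without STAT4. Cenpa, the histone H3 variant that marks the centromere, read 10.11 in STAT6-deficient against 11.02 in wild type Th2 cells, and 10.52 in STAT4-deficient against 10.50 in wild type Th1 cells. With Cdc25c it was the gene of the set that was called in neither the STAT6 loss nor the wild types.

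All 5 spindle motors and microtubule-associated proteins were lower without STAT6 (median −1.73) and in wild type Th1 against wild type Th2 cells (median −2.27). Tpx2, which activates Aurora A on the spindle, read 7.51 in STAT6-deficient against 9.94 in wild type Th2 cells, and 8.14 in STAT4-deficient against 7.32 in wild type Th1 cells. Its 4 probe sets gave STAT6 loss differences from −2.43 to 0.15, so the size is uncertain. Kif11, the motor that pushes the spindle poles apart, was 3.32-fold lower without STAT6, and Nusap1, a microtubule bundler, 3.63-fold lower. Kif4, a chromosome-bound kinesin, was 2.74-fold lower. Kif2c, which takes tubulin off microtubule ends at the centromere, read 8.05 in STAT6-deficient against 9.18 in wild type Th2 cells, and 7.58 in STAT4-deficient against 6.55 in wild type Th1 cells. It was called in both losses, 2.19-fold lower without STAT6 and 2.05-fold higher without STAT4. The second call rests on 1 of its 4 probe sets, as the others gave 0.64, 0.55 and −0.06.

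The midzone and cytokinesis genes had the largest difference of any gene in the set, and all 6 were lower without STAT6 (median −1.82). Kif23, the motor of the centralspindlin complex, read 8.06 in STAT6-deficient against 11.68 in wild type Th2 cells, and 8.58 in STAT4-deficient against 8.06 in wild type Th1 cells. Wild type Th2 stood 12.2-fold above STAT6-deficient cells, and the 3 other arrays lay within 0.52 of each other. Its 2 other probe sets gave −3.43 and −1.35, the second from a probe set below the level minimum on every array. Racgap1, the partner of Kif23 in that complex, read 8.32 in STAT6-deficient against 9.97 in wild type Th2 cells, and 8.66 in STAT4-deficient against 8.39 in wild type Th1 cells. Ect2, which the complex recruits to activate RhoA, read 5.60 in STAT6-deficient against 8.08 in wild type Th2 cells, and 5.54 in STAT4-deficient against 5.16 in wild type Th1 cells. Only the wild type Th2 array lifted Ect2 above the level minimum. Prc1, which bundles midzone microtubules, was 3.46-fold lower without STAT6, and Kif20a, a midzone kinesin, 3.60-fold lower. Anln, anillin of the contractile ring, read 7.59 in STAT6-deficient against 8.83 in wild type Th2 cells, and 6.83 in STAT4-deficient against 5.57 in wild type Th1 cells. It was 2.36-fold lower without STAT6, 2.38-fold higher without STAT4 and 9.57-fold lower in wild type Th1 than in wild type Th2 cells. Its other probe set, below the level minimum, gave 0.14 without STAT4.

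Of the genes of chromosome structure 5 of 6 were lower without STAT6 (median −1.31), and 6 of 6 in wild type Th1 against wild type Th2 cells. Mki67, the proliferation antigen Ki-67, which coats mitotic chromosomes, read 11.34 in STAT6-deficient against 12.52 in wild type Th2 cells, and 10.63 in STAT4-deficient against 10.27 in wild type Th1 cells. Top2a, the topoisomerase that untangles sister chromatids, read 10.89 in STAT6-deficient against 12.33 in wild type Th2 cells, and 9.73 in STAT4-deficient against 9.87 in wild type Th1 cells. Both kept the order of wild type Th2, STAT6-deficient Th2 and then the Th1 arrays. The condensin subunits Ncapg, Ncapd2 and Smc2 were 2.27-fold, 2.82-fold and 2.88-fold lower without STAT6. Smc4, their partner, read 11.87 in STAT6-deficient against 12.10 in wild type Th2 cells, and 12.09 in STAT4-deficient against 11.00 in wild type Th1 cells, so 3 arrays were level and wild type Th1 was low. Its 2 dimmer probe sets gave −2.42 and −1.89 for the same STAT6 loss, so whether Smc4 followed the other condensin genes depends on the probe set. The probe sets of Smc2 also spread, from −3.70 to −1.18, all in the same direction.

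**Figure D4:**
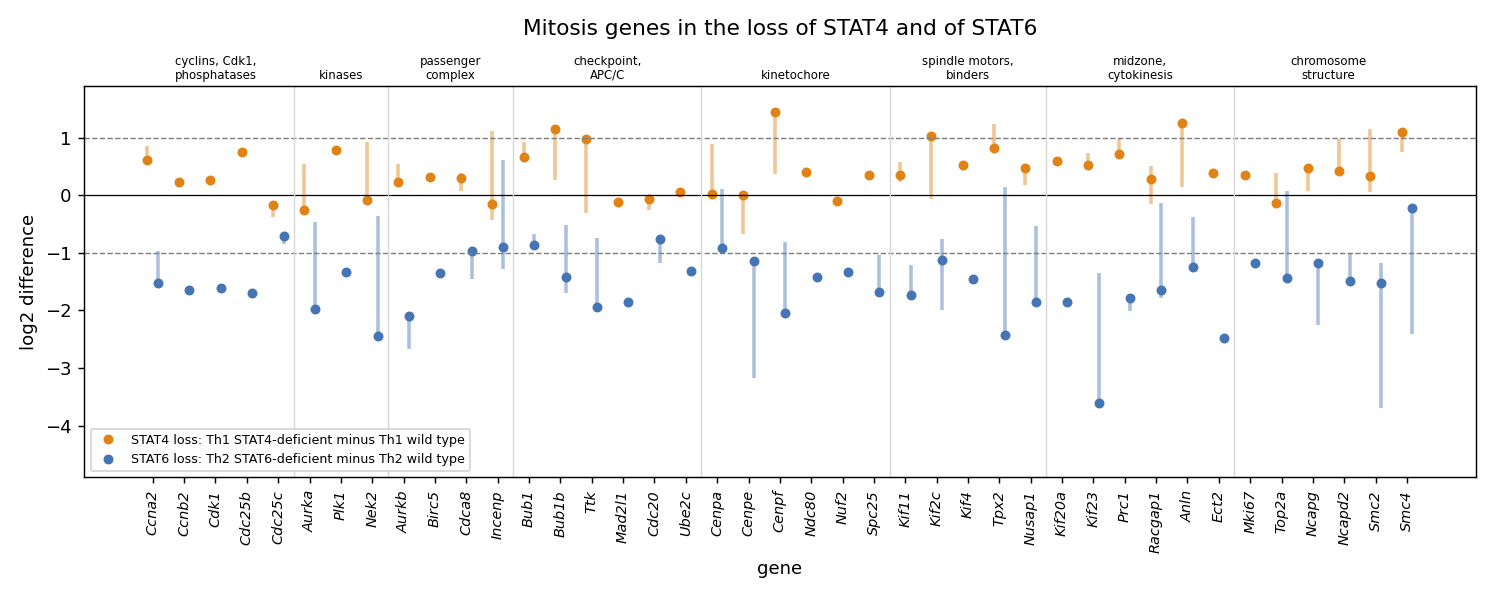
Log2 difference of each of the 41 genes in the loss of STAT4 (orange, STAT4-deficient minus wild type Th1) and the loss of STAT6 (blue, STAT6-deficient minus wild type Th2); points are main probe sets, bars run from the lowest to the highest probe set of the gene, and dashed lines mark 2-fold. Every blue point lies below 0 and 34 pass 2-fold, while the orange points run from −0.26 (Aurka) to 1.45 (Cenpf).

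The 2 losses share no array, so their difference was taken gene by gene. STAT6 loss minus STAT4 loss was below 0 for all 41 genes, with a median of −1.92, and at or below −1 for 37. Among all 13147 genes at the level minimum, 67.6% were below 0 and 24.0% at or below −1. The largest such differences were those of Kif23 (−4.13), Cenpf (−3.50) and Tpx2 (−3.25), and the smallest were those of Cdc25c (−0.53), Cdc20 (−0.68) and Incenp (−0.75).

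Counts over all 91 probe sets ran the same way as those of the main probe sets in 3 of the 4 comparisons. Of those at the level minimum, 59 of 76 were at least 2-fold lower without STAT6 and 0 higher. Without STAT4, 0 of 72 were lower and 9 higher. Between the wild types 63 of 78 were lower in Th1 and 1 higher, that of Bub1b. Between the knockouts 7 of 73 were lower in STAT4-deficient Th1 cells and 12 higher, where the main probe sets gave 5 and 0, so that comparison had no settled direction.

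**Figure D5:**
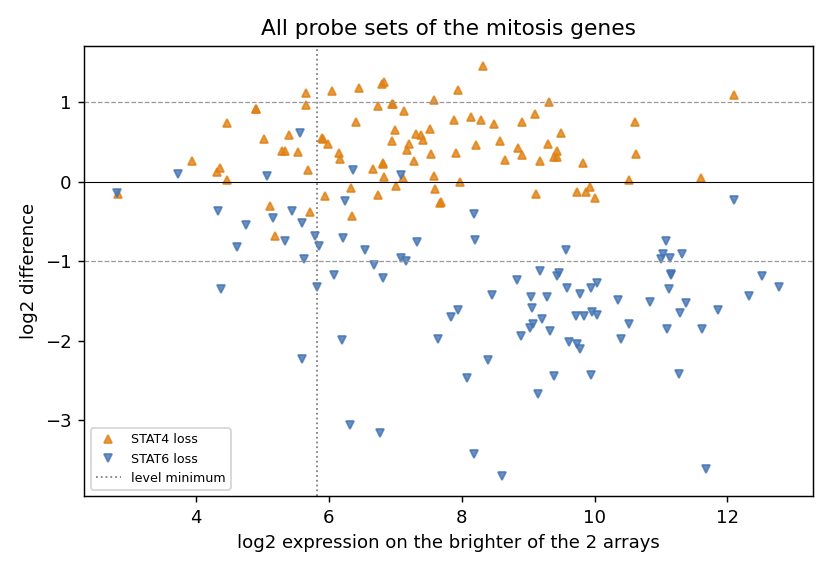
Log2 difference of all 91 probe sets of the 41 genes in STAT4 loss (orange) and STAT6 loss (blue), against the log2 level on the brighter of the 2 arrays; the dotted line is the level minimum of 5.82 and dashed lines mark 2-fold. Above the level minimum 59 of 76 blue points lie at or below −1, and 9 of 72 orange points lie at or above 1.

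The other mitosis genes of the array, a list of 122 chosen by role of which 120 were measured, were also mostly lower without STAT6 and in wild type Th1 cells. Without STAT6, 62 of 118 were lower and 1 higher (median −1.03), against 19.5% and 7.01% of all genes at the level minimum. In wild type Th1 against wild type Th2 cells 80 of 118 were lower and 0 higher (median −1.45), against 25.4% and 8.14%. Without STAT4, 7 of 111 were lower and 5 higher (median 0.15), near the 5.34% and 6.18% of all genes. Between the knockouts 25 of 114 were lower and 5 higher (median −0.26), against 10.3% and 12.6%. Depdc1a read 4.27 in STAT6-deficient against 6.95 in wild type Th2 cells. Ska2, of the Ska complex that holds kinetochores to microtubules, read 7.19 in STAT6-deficient against 9.81 in wild type Th2 cells. The differences were −2.68 and −2.63. Sgo1, shugoshin, which protects cohesin at centromeres, had the largest increase of the list without STAT4. It read 8.38 in STAT4-deficient against 6.75 in wild type Th1 cells, with 2 probe sets at 1.63 and 2.31. Kntc1, of the checkpoint complex that recruits dynein, went the other way and further (−2.02), at 4.72 in STAT4-deficient against 6.74 in wild type Th1 cells.

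DNA replication genes, which act a phase earlier, were lower without STAT6 in 27 of 39 (median −1.16), against 19.5% of all genes. In wild type Th1 against wild type Th2 cells 37 of 39 were lower (median −2.04), against 25.4%. Between the knockouts, 20 of 39 were lower in STAT4-deficient Th1 than in STAT6-deficient Th2 cells (median −1.12), against 10.3% of all genes and 5 of 39 mitosis genes. That count was 18 to 27 under the 4 other scalings, and the difference between the lists was not tested. Cdc6, which loads the replicative helicase, read 4.24 in wild type Th1 and 9.58 in wild type Th2 cells, and 4.31 in STAT4-deficient Th1 and 7.04 in STAT6-deficient Th2 cells. Among 14 Cdk inhibitors and D cyclins, 5 of 13 were lower without STAT6 and 3 of 12 without STAT4, against 19.5% and 5.34% of all genes. Cdkn2d, the inhibitor p19, was lower in both, at 8.36 in STAT6-deficient against 11.35 in wild type Th2 cells, and at 8.12 in STAT4-deficient against 9.94 in wild type Th1 cells. Cdkn1a, the inhibitor p21, was lower without STAT4, at 11.62 in STAT4-deficient against 12.99 in wild type Th1 cells.

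Of a list of cell cycle transcription factors chosen by role, 9 of 22 were lower without STAT6 and 0 higher, against 19.5% and 7.01% of all genes. In wild type Th1 against wild type Th2 cells 11 of 21 were lower, against 25.4%. Their binding to these promoters was not measured. Rbl2, the gene of p130, a repressor subunit of the complex on CHR elements, read 5.95 in STAT6-deficient against 9.88 in wild type Th2 cells, and 7.67 in STAT4-deficient against 7.44 in wild type Th1 cells. Its 15.2-fold difference without STAT6 was larger than that of any gene of the mitosis set, and its other probe set gave −3.36. Rbl1, the gene of p107, read 9.53 in STAT6-deficient against 10.04 in wild type Th2 cells, and 7.90 in STAT4-deficient against 7.49 in wild type Th1 cells, and its 4 probe sets differed in sign between the wild types. Foxm1, the activator of late mitotic genes, read 7.03 in STAT6-deficient against 7.80 in wild type Th2 cells, and 7.42 in STAT4-deficient against 7.01 in wild type Th1 cells. This main probe set, at −0.77, did not pass the limit for STAT6 loss, and the 4 probe sets ran from −1.79 to −0.53, so the call depends on the probe set. Mybl2, B-Myb, read 7.13 in STAT6-deficient against 7.90 in wild type Th2 cells, and 6.26 in STAT4-deficient against 5.45 in wild type Th1 cells, a 2-fold call only between the wild types. E2f1 was lower without STAT6, at 6.91 in STAT6-deficient against 8.12 in wild type Th2 cells. Its 3 probe sets ran from −1.21 to −0.14, so this call also depends on the probe set. E2f4, the E2F of the repressor complex, was the only factor of the list called without STAT4, at 9.24 in STAT4-deficient against 7.97 in wild type Th1 cells.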

How the data were processed

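Expression was measured on 4 Affymetrix mouse arrays, 1 per group. The authors deposited log2 values per probe set, made with RMA per the submitters' processing notes; its version and whether the arrays were normalized together are not given in the sources used here. Of 45101 probe sets, 64 were controls and 34945 carried 1 gene. A RefSeq gene table (GRCm38.p6) updated symbols and matched 34741 of these. The brightest probe set over the 4 arrays stood for each gene. Differences, counts and motifs were computed with Python 3.11.15, pandas 2.3.3 and numpy 2.4.6, figures with matplotlib 3.10.9, and quantile and cyclic loess scalings with limma 3.58.1 in R 4.3.3. A call needed 2-fold and a level of 5.82 on the brighter array; the scripts were tested on simulated data. Alternatives were 4 scalings, 3 choices of probe set, 2 level minimums, 2 fold limits and a shorter promoter window. The members and lists were chosen with earlier results of these data known. All members are named; of other lists, up to 3 called genes with the largest difference per comparison, plus Foxm1, Mybl2, E2f1, Rbl1, Stat4 and Stat6, were open to naming, and not all are given.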

Additional observations from a re-analysis of the deposited data

Results flagged for a closer look

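Between the losses, 4 of the 41 genes passed the 2-fold limit in opposite directions, lower without STAT6 and higher without STAT4, against 1.28% of 10951 genes at the level minimum in both comparisons. STAT6 loss minus STAT4 loss was −3.50 for Cenpf, −2.57 for Bub1b, −2.49 for Anln and −2.16 for Kif2c. With 1 array per group the difference was not tested. The number of such genes was 2 to 10 under the other 4 scalings and 0 at a 3-fold limit. With the median of the probe sets it was 1 (Smc2), and with the dimmest probe set 1 (Smc4), so none of the 4 was among them. Cenpf was the only one of the 4 that appeared under each of these 4 scalings. Each of the 4 passed 2-fold without STAT4 on 1 probe set. Their other probe sets gave 0.36 and 0.76 for Cenpf, 0.78 and 0.26 for Bub1b, 0.14 for Anln, and 0.64, 0.55 and −0.06 for Kif2c.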

How the results depend on the processing

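The number of genes lower without STAT6 was 25 to 40 under the alternatives except a 3-fold limit, which left 18, and 0 were higher under any of them. All 41 differences stayed below 0 under the 4 scalings. The dimmest probe set per gene is also the main one for the 13 genes with 1 probe set, so their values could not change. With it, 29 genes reached the level minimum, and 38 of 41 differences stayed below 0. Top2a turned to 0.0677, Incenp to 0.61 and Cenpa to 0.10. Between the wild types the dimmest probe sets left 22 lower and 1 higher, and turned Nek2 (0.11), Incenp (0.54), Bub1b (1.41), Racgap1 (0.0092), Anln (0.0941) and Cenpa (0.56). Genes higher without STAT4 numbered 2 after median centring, 12 after centring on hybridization controls, 2 with the median of the probe sets, 2 with the dimmest, 3 with plain probe sets (which 31 genes have), 3 at the 75th percentile level minimum, 13 at 1.5-fold and 0 at 3-fold. Genes lower in STAT4-deficient Th1 than in STAT6-deficient Th2 cells numbered 13 after median centring, 2 after quantile normalization, 2 after cyclic loess, 3 after hybridization controls, 3 with the median of the probe sets, 1 with the dimmest, 3 with plain probe sets, 13 at 1.5-fold and 0 at 3-fold. Those higher numbered 1 after quantile normalization, 4 with the median of the probe sets, 5 with the dimmest, 2 with plain probe sets and 3 at 1.5-fold. The dimmest probe sets also turned the knockout median to 0.14 and Incenp (0.41), Top2a (0.26) and Ncapg (0.68). The cause was not tested. Over all genes, the share of calls that were higher moved with the scaling: in STAT6 loss it was 26.5% as deposited and 20.1% to 43.4% otherwise, in STAT4 loss 53.7% and 24.8% to 87.5%, between the wild types 24.3% and 8.89% to 45.2%, and between the knockouts 55.1% and 18.8% to 68.4%. The scalings also moved the median of all genes, to between −0.30 and −0.02 in STAT6 loss (−0.19 as deposited), −0.07 and 0.55 in STAT4 loss (0.17), −0.47 and 0.04 between the wild types (−0.10) and −0.16 and 0.34 between the knockouts (0.21). Beside these the median of the mitosis genes lay between −1.61 and −1.23, 0.12 and 0.74, −2.65 and −1.81, and −0.62 and −0.08, in the same order of comparisons. In the shorter promoter window the CHR stood in 81.1% of the windows, against 12.0% of all. No paired analysis was possible because each group has 1 array, which also means that no array could be left out. The number of arrays limits every value.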
